A study of Sinocyclocheilus angustiporus and Sinocyclocheilus anophthalmus with 4 samples.

Results

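Photoreceptors keep a current flowing in darkness through channels held open by cyclic GMP. Light starts a cascade that destroys cyclic GMP, the channels close and the calcium level in the outer segment falls. Recovery depends on that fall: guanylate cyclase activating proteins (GCAPs), small calcium sensors bound to the membrane guanylate cyclases, switch the cyclases on when calcium is low, so that cyclic GMP is made again. Recoverin, a related calcium sensor, holds back rhodopsin kinase while calcium is high and releases it when calcium is low, which lets the kinase shut off the activated pigment. The genes described here are those whose row name contained "guanylate cyclase" or "recoverin": 8 of the 9649 rows of the deposited eye tables. They comprised 5 rows named as guanylate cyclase activators, 1 recoverin row, 1 row named as a retinal membrane cyclase (guanylate cyclase 2F, retinal) and 1 row named guanylate cyclase alpha 2, the name of a subunit of the soluble cyclase that responds to nitric oxide. The first 7 are called the photoreceptor members below.

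Messenger RNA was sequenced from whole eyes of adult Sinocyclocheilus anophthalmus, a cavefish, and of adult Sinocyclocheilus angustiporus, a surface fish of the same genus, with 1 eye library for each. No treatment is labelled in either group. Per the labels' protocols 2 individuals of each species were used, whether pooled or not is left unsaid, and either of 2 sequencer models may have run a given library, so that species, individual and instrument cannot be told apart. The series has 4 libraries, and the brain library of each species was not analysed here. Since each group is a single library, the differences are given without replicate error, p-value or counting interval, and the read depth is unknown.

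Values are RPKM, a read number divided by transcript length and by library size, so that levels of different rows can be set side by side. Differences are log2 ratios of cavefish over surface fish after adding 1 RPKM to each value, which understates the difference of low rows, and a log2 ratio of -1 marks 2-fold lower. The ratios of all rows had a median of -0.27 on the deposited scale. The 2 most abundant rows made up 62.6% of the RPKM total in the cavefish eye and 53.2% in the surface fish eye. For members, and for other named rows whose side of 2-fold it changes, the ratio relative to the median of all rows is therefore given too. Both libraries held the markers of the labelled tissue. Rhodopsin ranked 3 of 9649 in the cavefish eye and likewise 3 in the surface fish eye, and all 5 lens markers were present. Of these 5, 4 were 2-fold higher in the cavefish eye, where 3.83% of all rows were.

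As a group, the 8 member rows were lower in the cavefish eye. Of the 8 rows, 6 were at least 2-fold lower, none was 2-fold higher and 2 lay within 2-fold, against a background of 10.1% of all rows that were 2-fold lower and 3.83% that were 2-fold higher. All 6 were among the 7 photoreceptor members, whose median log2 ratio was -1.21. The median log2 ratio of the 8 rows was -1.20. Relative to the median of all rows it was -0.93, and 3 of the 8 rows were then at least 2-fold lower, where 5.55% of all rows were. Those 3 rows were the activators 1C, 1A (retina) and 1d. Together the 8 rows summed to 922.2 RPKM in the cavefish eye and 2147 RPKM in the surface fish eye. That was 0.139% of the RPKM total in the cavefish eye and 0.314% in the surface fish eye. Every member was above 5 RPKM in both eyes, so none was in the tables through one eye alone.

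**Figure D1:**
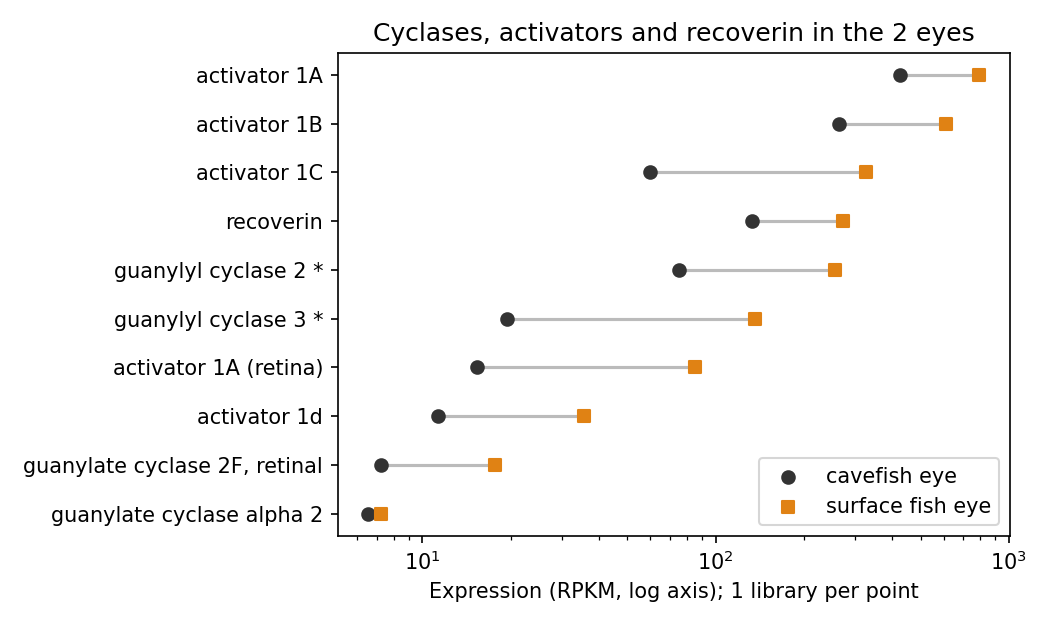
RPKM (log axis) of each member row in the cavefish eye (dark circles) and the surface fish eye (orange squares), 1 library each, ordered by the surface fish value; rows with an asterisk are named guanylyl cyclase and lie outside the naming rule. All rows shown had the lower value in the cavefish eye on this scale, where 6634 of all 9649 rows did. The gap was widest for guanylyl cyclase 3 and narrowest for guanylate cyclase alpha 2.

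The activators included the 2 most abundant members, and their log2 ratios ranged from -2.44 to -0.90. Guanylate cyclase activator 1A, the row named for GCAP1, stood at 424.7 RPKM in the cavefish eye and 792.3 RPKM in the surface fish eye, ranks 54 and 31 of all rows. Its log2 ratio of -0.90 was the smallest difference among the activators and lay just short of 2-fold. Guanylate cyclase activator 1B, named for GCAP2, stood at 264.4 RPKM in the cavefish eye and 611.5 RPKM in the surface fish eye. Its log2 ratio was -1.21, past 2-fold on the deposited scale and -0.94 relative to the median of all rows.

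The next 3 activators were further apart between the eyes. Guanylate cyclase activator 1C, named for GCAP3, which in zebrafish and human retina is a cone protein, stood at 59.6 RPKM in the cavefish eye and 326.6 RPKM in the surface fish eye. The cavefish level was 18.2% of the surface fish level, a log2 ratio of -2.44, and only 0.466% of all rows had a ratio as low or lower. The row named guanylate cyclase activator 1A (retina) stood at 15.4 RPKM in the cavefish eye and 85.1 RPKM in the surface fish eye, a log2 ratio of -2.39. Activators 1C and 1A (retina) were the 2 members past 4-fold, where 1.29% of all rows were 4-fold lower, and they remained past 4-fold under all 4 alternative scalings. Guanylate cyclase activator 1d stood at 11.3 RPKM in the cavefish eye and 35.5 RPKM in the surface fish eye, a log2 ratio of -1.57, past 2-fold with each scaling too.

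The rows named 1A and 1A (retina) share a gene name, and whether they are separate genes or pieces of one transcript is not stated. They did not move alike: the first held 27.5 times the RPKM of the second in the cavefish eye and 9.31 times in the surface fish eye. Summed, they stood at 440.1 RPKM in the cavefish eye and 877.4 RPKM in the surface fish eye, a log2 ratio of -0.99.

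The makeup of the activator pool differed accordingly, and ratios within a library are not touched by a scaling that multiplies all its values by the same factor; quantile normalization, which is not of that kind, can change them. The 5 rows summed to 775.4 RPKM in the cavefish eye and 1851 RPKM in the surface fish eye. Activator 1A made up 54.8% of the sum in the cavefish eye and 42.8% in the surface fish eye. Activator 1B held 34.1% in the cavefish eye and 33.0% in the surface fish eye, nearly the same share. Activator 1C held 7.68% in the cavefish eye and 17.6% in the surface fish eye. The ratio of 1A to 1C was 7.13 in the cavefish eye and 2.43 in the surface fish eye. The order of the 5 rows by level was the same in both eyes: 1A, 1B, 1C, 1A (retina), 1d. How far any of these shares varies between fish of one species is not known from 1 library each.

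**Figure D2:**
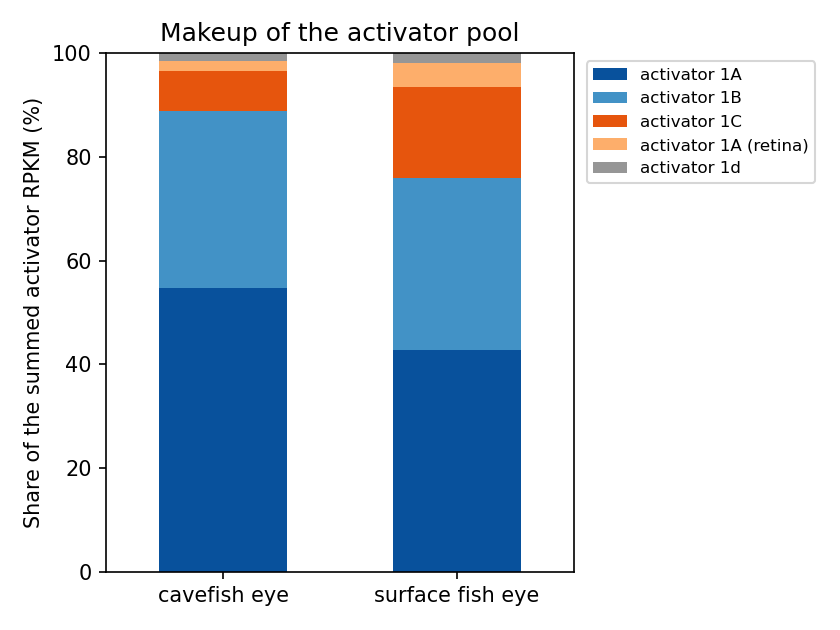
Share of each activator row in the summed RPKM of the 5 activators (stacked to 100%), for the cavefish eye and the surface fish eye, 1 library each. Activators 1A and 1B fill most of both bars, and the segment of 1C is 7.68% in the cavefish eye against 17.6% in the surface fish eye.

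Recoverin, the brake on rhodopsin kinase, stood at 133.0 RPKM in the cavefish eye and 271.0 RPKM in the surface fish eye, ranks 258 and 129 of all rows. Its log2 ratio of -1.02 was the member value just past 2-fold, and relative to the median of all rows it was -0.75. The kinase that recoverin binds differed more. G protein-coupled receptor kinase 1 a stood at 38.7 RPKM in the cavefish eye and 104.7 RPKM in the surface fish eye, a log2 ratio of -1.41. G protein-coupled receptor kinase 1 b stood at 7.75 RPKM in the cavefish eye and 29.1 RPKM in the surface fish eye, and the cone kinase G-protein-coupled receptor kinase 7a at 6.71 RPKM in the cavefish eye and 21.3 RPKM in the surface fish eye. Recoverin had 2.50 times the summed RPKM of these 3 kinase rows in the cavefish eye and 1.75 times in the surface fish eye.

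Of the cyclases, the row guanylate cyclase 2F, retinal, a membrane enzyme of photoreceptor outer segments, was low in both eyes. It stood at 7.23 RPKM in the cavefish eye and 17.7 RPKM in the surface fish eye, a log2 ratio of -1.18 that came to -0.91 relative to the median of all rows. Most of the retinal cyclase signal lay in 2 rows whose names are spelled guanylyl cyclase, which the naming rule does not take in and which were added after their values had been seen; in zebrafish, guanylyl cyclases of these numbers are membrane cyclases of the retina. Guanylyl cyclase 2 stood at 75.3 RPKM in the cavefish eye and 254.8 RPKM in the surface fish eye, a log2 ratio of -1.75. Guanylyl cyclase 3 stood at 19.5 RPKM in the cavefish eye and 136.3 RPKM in the surface fish eye, a log2 ratio of -2.74, lower than that of any member.

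Both guanylyl cyclase rows remained past 2-fold relative to the median of all rows, at -1.48 and -2.47. Whether the 3 retinal cyclase rows are separate genes or pieces of the same transcript is not stated. They summed to 102.1 RPKM in the cavefish eye and 408.8 RPKM in the surface fish eye. Guanylyl cyclase 2 held 73.8% of that sum in the cavefish eye and 62.3% in the surface fish eye, and guanylyl cyclase 3 held 19.1% in the cavefish eye and 33.3% in the surface fish eye. The activators summed to 7.60 times the retinal cyclases in the cavefish eye and 4.53 times in the surface fish eye. With guanylate cyclase 2F alone as the denominator this ratio was 107.3 in the cavefish eye and 104.6 in the surface fish eye, so the difference in it comes with the 2 rows outside the rule.

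Guanylate cyclase alpha 2 was the member with the smallest difference. It stood at 6.54 RPKM in the cavefish eye and 7.23 RPKM in the surface fish eye, a log2 ratio of -0.13. Its sign turns with the scale, since it was 0.062 to 0.14 under the 4 alternative scalings, and no direction is given for it. Among 3 measured rows for other handlers of cyclic GMP, cGMP-dependent protein kinase type I, an effector in smooth muscle and neurons, stood at 9.08 RPKM in the cavefish eye and 7.50 RPKM in the surface fish eye. Phosphodiesterase 2A stood at 7.58 RPKM in the cavefish eye and 8.20 RPKM in the surface fish eye. Phosphodiesterase 5A, which breaks down cyclic GMP in smooth muscle and other tissues, stood at 7.22 RPKM in the cavefish eye and 95.4 RPKM in the surface fish eye, a log2 ratio of -3.55.

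**Figure D3:**
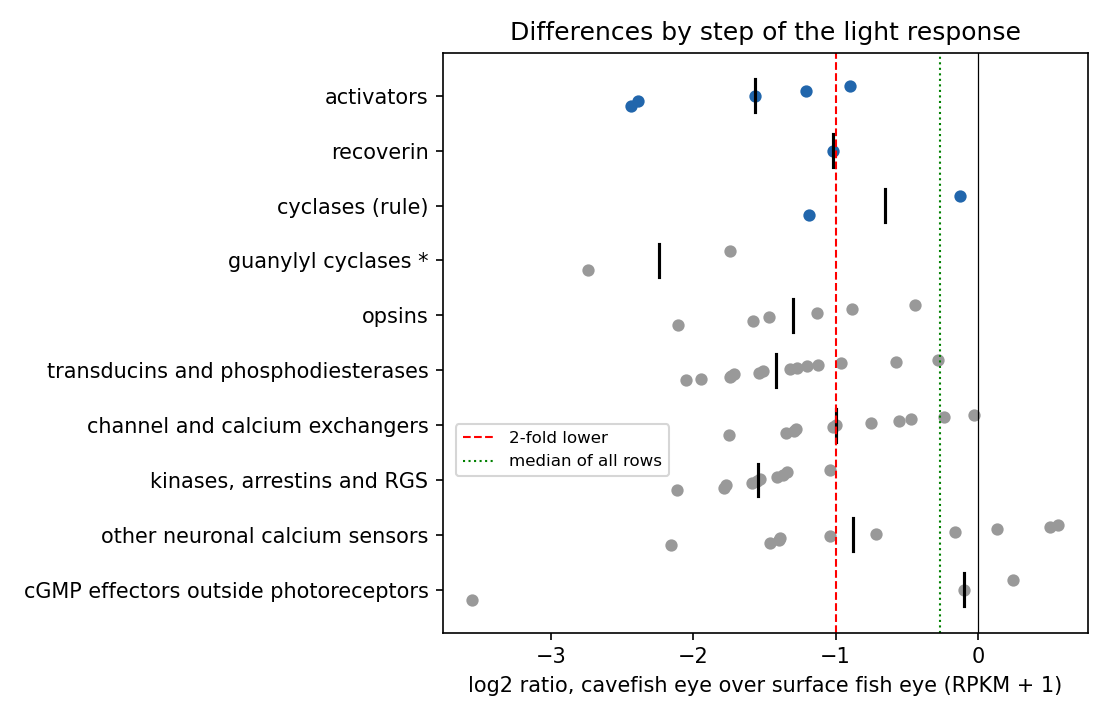
log2 ratios of cavefish over surface fish eye (RPKM + 1) for each member by role (blue) and for each row of the comparison lists (grey), with group medians as black bars, the 2-fold line dashed in red and the median of all rows dotted in green; the asterisk marks rows outside the naming rule. The activators reach down to -2.44, the guanylyl cyclases to -2.74, the calcium sensors to -2.16 and the general cGMP handlers to -3.55. The calcium sensors and the general cGMP handlers also have values above 0.

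The other steps of the light response were lower in the cavefish eye as well. Of 41 rows for rod and cone pigments, transducins, phosphodiesterases, channels, calcium exchangers, kinases, arrestins and their regulators, 30 were at least 2-fold lower and none 2-fold higher, with a median log2 ratio of -1.34. The background over all rows was 10.1% 2-fold lower and 3.83% 2-fold higher. Relative to the median of all rows 25 of the 41 were 2-fold lower, against 5.55% of all rows, and the median of the 41 was -1.07. The median of the 7 photoreceptor members was -1.21. The members' median minus that of the 41 rows was 0.14. Among the exchanger rows, only solute carrier family 24 member 1 is described here as that of rod outer segments. The others need not be steps of the light response. Without exchanger rows other than member 1, 30 of 36 rows were 2-fold lower, with a median of -1.39, and the difference was 0.18. With a pseudocount of 5 RPKM the difference from the 41 rows was -0.025, so no order of these medians can be given. The 3 rows of these lists with a ratio nearest to the members' median, by the absolute difference over 2 libraries only, were phosphodiesterase 6B of rods (-1.20, and -0.93 relative to the median of all rows), the transducin-type subunit beta polypeptide 1b (-1.27) and cyclic nucleotide gated channel alpha 3b of cones (-1.28). The last was under 5 RPKM in the cavefish eye, so that it is in the tables only through its surface fish value. It is counted among the 30 and the 25 rows that were 2-fold lower.

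Of 6 opsin rows 4 were at least 2-fold lower, where 10.1% of all rows were. Rhodopsin stood at 4884 RPKM in the cavefish eye and 14606 RPKM in the surface fish eye (-1.58). The long-wave cone opsin stood at 227.6 RPKM in the cavefish eye and 984.2 RPKM in the surface fish eye (-2.11), and the short-wave-sensitive 2 opsin had a ratio of -1.47. The other opsin row past 2-fold, green-sensitive opsin-3, stood at 8.77 RPKM in the cavefish eye and 20.4 RPKM in the surface fish eye (-1.13, and -0.86 relative to the median of all rows). Of 14 transducin and phosphodiesterase rows, which carry the signal to the destruction of cyclic GMP, 11 were at least 2-fold lower. The most abundant were the rod transducin alpha subunit (-1.74), beta polypeptide 1a (-1.51) and the cone phosphodiesterase gamma subunit 6H (-1.72).

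Of 11 channel and exchanger rows 5 were at least 2-fold lower, where 10.1% of all rows were. The 5 include cyclic nucleotide gated channel alpha 3b, which is in the tables only through its surface fish value. Cyclic nucleotide gated channel alpha 1, the rod channel that cyclic GMP opens, stood at 124.4 RPKM in the cavefish eye and 306.1 RPKM in the surface fish eye (-1.29). Its beta 1a row had a ratio of -1.02, which was -0.75 relative to the median of all rows, and cyclic nucleotide gated channel beta 1 stood at 8.78 RPKM in the cavefish eye and 32.0 RPKM in the surface fish eye (-1.75). The exchanger that removes calcium from rod outer segments, solute carrier family 24 member 1, stood at 12.3 RPKM in the cavefish eye and 32.9 RPKM in the surface fish eye (-1.35). The other 5 exchanger rows were within 2-fold, with log2 ratios between -0.75 and -0.031. All 10 rows for shut-off of the pigment and transducin were at least 2-fold lower, 9 of them relative to the median of all rows. By the sum of both eyes the most abundant were arrestin 3a of cones (-1.77), the S-antigen arrestin of rods (-1.59) and the RGS9 binding protein with the higher level (-2.12), which anchors the regulator that speeds transducin shut-off.

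On the deposited scale the members divided when set against rhodopsin within each library. Recoverin came to 27.2 RPKM per 1000 RPKM of rhodopsin in the cavefish eye and 18.6 in the surface fish eye. Activator 1A came to 86.9 per 1000 RPKM of rhodopsin in the cavefish eye and 54.2 in the surface fish eye, and activator 1B to 54.1 in the cavefish eye and 41.9 in the surface fish eye. Activator 1d differed little, at 2.32 in the cavefish eye and 2.43 in the surface fish eye. Activator 1C came to 12.2 per 1000 RPKM of rhodopsin in the cavefish eye and 22.4 in the surface fish eye, and activator 1A (retina) to 3.16 in the cavefish eye and 5.83 in the surface fish eye. Guanylate cyclase 2F came to 1.48 per 1000 RPKM of rhodopsin in the cavefish eye and 1.21 in the surface fish eye. With the 2 guanylyl cyclase rows outside the rule, the retinal cyclases summed to 20.9 per 1000 RPKM of rhodopsin in the cavefish eye and 28.0 in the surface fish eye. On this scale recoverin, activators 1A and 1B and guanylate cyclase 2F were higher relative to the rod pigment in the cavefish eye, and activators 1C and 1A (retina) were lower. Being higher relative to rhodopsin was not particular to those members. The median log2 ratio of the 41 rows for the other steps was -1.34, against -1.58 for rhodopsin itself. With quantile normalization, which sets rhodopsin equal in both eyes because it has the same rank in each, all 7 photoreceptor members were lower relative to it, so the direction for recoverin, activators 1A and 1B and guanylate cyclase 2F turns with that scaling.

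Markers of rods and cones moved with the members. Except for nuclear receptor subfamily 2, group E, member 3, they are rows already counted among the 41 above, not separate values. The 5 rod markers were all at least 2-fold lower and summed to 5971 RPKM in the cavefish eye and 18051 RPKM in the surface fish eye. Relative to the median of all rows 3 of these 5 were 2-fold lower. The 5 cone markers were likewise all 2-fold lower, 4 of them relative to the median of all rows, and summed to 956.4 RPKM in the cavefish eye and 3383 RPKM in the surface fish eye. These markers are a choice among more rows. Of 6 rows named for rods in the lists above, 3 were 2-fold lower, and 2 relative to the median of all rows. Rod phosphodiesterase subunits 6G (-0.57) and 6D (-0.96) and the row named rod opsin (-0.44) were within 2-fold. Of 6 rows named for cones, 5 were 2-fold lower, and 3 relative to the median of all rows. In a whole eye, fewer photoreceptors and less of each RNA per photoreceptor cannot be told apart. None of the 5 ganglion cell marker rows was past 2-fold (median -0.10), nor was any of the 5 pigment epithelium markers (0.16). Of 6 bipolar and amacrine cell markers 1 was 2-fold lower (median -0.35), as was 1 of 4 Mueller glia markers (-0.0092). Since 10.1% of all rows were 2-fold lower and 3.83% 2-fold higher, counts of 0 or 1 in groups this small are near the background. They are not read as results about these cell types. Relative to the median of all rows, 1 marker in each of these 4 groups was 2-fold higher, namely POU domain, class 4, transcription factor 2 of ganglion cells (1.003), tyrosinase (1.13), visual system homeobox 2 (1.27) and glial fibrillary acidic protein (1.07), and no Mueller glia marker was 2-fold lower. On that scale 647 of all 9649 rows were 2-fold higher and 536 were 2-fold lower. The ganglion cell row stood at 5.50 RPKM in the cavefish eye and 2.91 RPKM in the surface fish eye, and tyrosinase at 9.46 and 4.77 RPKM. Both were under 5 RPKM in the surface fish eye, so they are present only through their cavefish values. The ganglion cell row was short of 2-fold with the trimmed mean (0.998), equal totals (0.95) and quantile normalization (0.89). Retinaldehyde binding protein 1a (0.62) was counted with Mueller glia and its paralog 1b (0.014) with pigment epithelium. Which paralog belongs to which cell type was not tested here. Exchanging them would move the medians of both groups, though neither row was past 2-fold. Of the other tissues in the dissected eye, the 3 cornea and skin markers summed to 80.1 RPKM in the cavefish eye and 877.6 RPKM in the surface fish eye, and the 3 muscle markers to 1467 RPKM in the cavefish eye and 520.9 RPKM in the surface fish eye. The 2 globin rows of blood were both 2-fold lower, 1 of them relative to the median of all rows, and summed to 486.1 RPKM in the cavefish eye and 1634 RPKM in the surface fish eye. The part of tissue makeup in the members' values was not tested.

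Calcium sensors related to GCAPs and recoverin, or of the same EF-hand type, were mixed. Of 10 such rows, 5 were at least 2-fold lower, none was 2-fold higher and the median log2 ratio was -0.88. Of all rows 10.1% were 2-fold lower and 3.83% 2-fold higher. Ratios of 7 of the 10 were below 0. Relative to the median of all rows 4 of the 10 were 2-fold lower, where 5.55% of all rows were. Among both the 5 and the 4 was neuronal calcium sensor 1a, at 3.09 RPKM in the cavefish eye and 10.3 RPKM in the surface fish eye. That row was under 5 RPKM in the cavefish eye, so it is in the tables only through its surface fish value. Calcium binding protein 5, a sensor of bipolar cells, stood at 62.2 RPKM in the cavefish eye and 281.1 RPKM in the surface fish eye (-2.16), and calcium binding protein 4, a regulator of calcium channels at photoreceptor terminals, at 57.9 RPKM in the cavefish eye and 153.7 RPKM in the surface fish eye (-1.39). Visinin-like 1b, a sensor of many neurons, stood at 96.7 RPKM in the cavefish eye and 87.9 RPKM in the surface fish eye (0.14). Neurocalcin delta b had a ratio of -1.40, and its paralog neurocalcin delta a was within 2-fold, at 0.51.

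**Figure D4:**
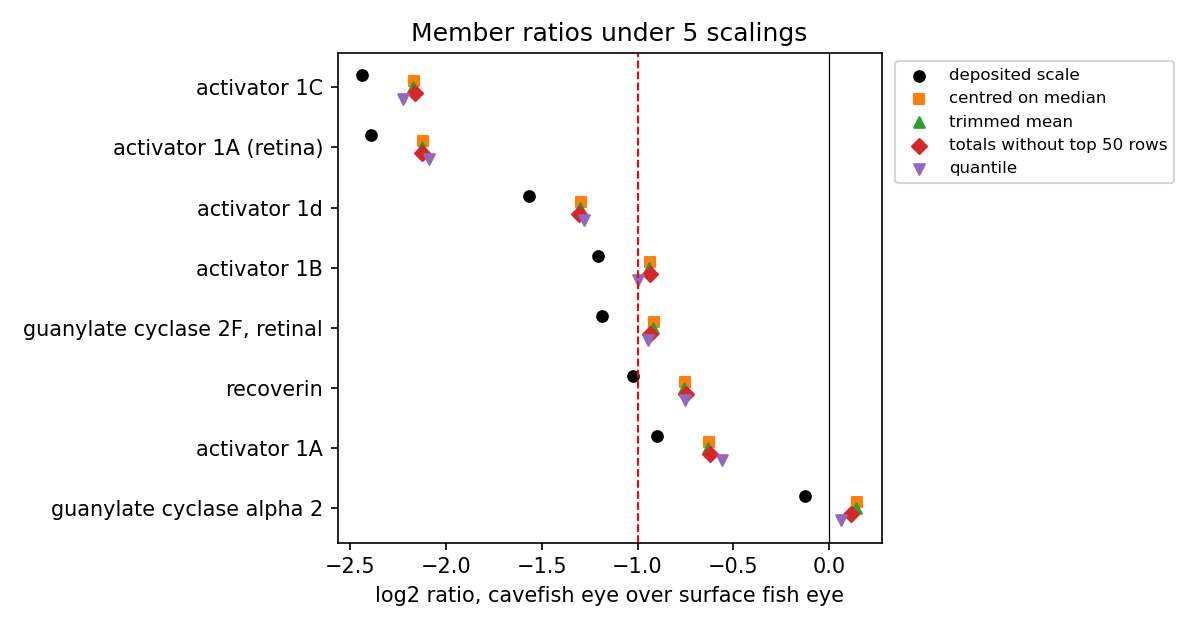
log2 ratio of each member, cavefish over surface fish eye, on the deposited scale (black circles) and under 4 alternative scalings (coloured symbols); the red dashed line marks 2-fold lower. Activators 1C, 1A (retina) and 1d lie past the line with every scaling shown, activator 1B, guanylate cyclase 2F and recoverin cross it, activator 1A stays short of it and guanylate cyclase alpha 2 lies on both sides of 0.

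The other scalings moved the members together upwards and left their order by ratio as it was, except that activator 1B and guanylate cyclase 2F changed places with equal totals. Activator 1C was -2.16 to -2.22 with them, activator 1A (retina) -2.09 to -2.13, and activator 1d -1.28 to -1.31. Activator 1B was -0.93 to -0.995, guanylate cyclase 2F -0.91 to -0.95, recoverin -0.75 to -0.76 and activator 1A -0.56 to -0.63. All 7 photoreceptor members were thus below 0 on each of the 5 scales. Of all 9649 rows, 6634 were below 0 on the deposited scale. Under the 4 alternative scalings the median of all rows lay between -0.022 and 0. Under all 4 alternative scalings 3 of the 8 rows were at least 2-fold lower, where 5.55% of all rows were with centring on the median, 5.6% with a trimmed mean, 5.8% with equal totals and 5.79% with quantile normalization. With a pseudocount of 5 RPKM 4 of the 8 rows were, against 5.36% of all rows.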

How the data were processed

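RNA sequencing values of 1 cavefish eye library and 1 surface fish eye library were used. Per the file headers, the authors deposited RPKM for 9649 rows in each of 2 tables with the same row names. The submitters' processing notes list Bowtie 0.12.2 without its role. The reference used, the lengths of transcripts and the handling of reads with several matches are not given. The larger value of each row was at least 5 RPKM. Whole reads were not recovered and the depth is unknown. Reads shared between near-identical paralogs, of which cyprinid fish have many, could have been divided in ways that move single rows.

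Rows were taken as deposited and not merged by gene. For each row 1 RPKM was added to both values and the log2 of cavefish over surface fish was taken, with 2-fold as the threshold and no test. The members and lists were chosen with earlier results of these data known, and list patterns were adjusted after the row names and values had been seen. All members were named, as were the 3 most abundant rows of each list. Rows past 2-fold in lists of up to 6 rows and the 3 rows nearest in ratio were named too. Further rows were chosen after their values were seen. They were the receptor kinases, cyclic nucleotide gated channel beta 1, phosphodiesterases 6D and 6G, rod opsin, the neurocalcins and neuronal calcium sensor 1a. Those of the closing observations were also chosen in this way. Alternatives were pseudocounts of 0.1 and 5, a filter at a mean of 10 RPKM, a threshold of 4-fold, summed rows, added rows and 4 scalings: centring on the median, a mean trimmed by 30% in each tail, equal totals without the 50 most abundant rows of either library, and quantile normalization. The computation was tested on simulated data. Python 3.11.15, numpy 2.4.6, pandas 2.3.3, scipy 1.17.1 and matplotlib 3.10.9 were used.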

Additional observations from a re-analysis of the deposited data

How the results depend on the processing

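The count of members at least 2-fold lower, 6 of 8 on the deposited scale, was 3 with each of the 4 other scalings, 4 with a pseudocount of 5 RPKM and 2 at a threshold of 4-fold. The share of all rows 2-fold lower was 10.1% on the deposited scale, 5.55% to 5.8% with those scalings and 5.36% with that pseudocount. At the 4-fold threshold 1.29% of all rows were lower. The count 2-fold higher was 0 under every alternative run, without a test to accompany it. Only 3.83% of all rows were 2-fold higher on the deposited scale, and 647 of 9649 relative to the median of all rows. A count of 0 among 8 rows is near those shares and is not read as a result about the members. The median log2 ratio of the 8 members was -0.93 with centring, with the trimmed mean and with equal totals, and -0.97 with quantile normalization. The share of all rows past 2-fold in either direction, 13.9%, was 7.15% with a pseudocount of 5 RPKM and 1.89% at 4-fold. The other scalings lowered the share of lower rows among those past 2-fold to between 45.3% and 48.4%, against 72.5% on the deposited scale. The photoreceptor members' median minus that of the 41 transduction rows turned to -0.025 with a pseudocount of 5 RPKM. Guanylate cyclase alpha 2 turned to 0.14 with centring, 0.14 with the trimmed mean, 0.11 with equal totals and 0.062 with quantile normalization. With a pseudocount of 5 RPKM guanylate cyclase 2F was -0.89. Recoverin then came to -0.9998, just short of 2-fold. Summing rows of the same name changed no member value. The filter at a mean of 10 RPKM left 7 members. No paired analysis was possible because each group has 1 library, and for the same reason no library could be left out. The unknown depth limits the low rows most.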

Other observations

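Genes of guanine nucleotide supply, a chaperone and calmodulin were looked up after the values were known, and are given as values only. Guanylate kinase 1, which turns GMP into GDP on the way back to the GTP that cyclases use, stood at 41.0 RPKM in the cavefish eye and 109.2 RPKM in the surface fish eye, a log2 ratio of -1.39. Inosine 5'-phosphate dehydrogenase 1a, of the enzyme family that makes guanine nucleotides, stood at 42.6 RPKM in the cavefish eye and 96.3 RPKM in the surface fish eye (-1.16, and -0.89 relative to the median of all rows), while its paralog 1b stood at 6.19 RPKM in the cavefish eye and 7.24 RPKM in the surface fish eye (-0.20). Inosine monophosphate dehydrogenase 2 stood at 4.73 RPKM in the cavefish eye and 6.29 RPKM in the surface fish eye (-0.35). Of these 4 supply rows 2 were at least 2-fold lower, and 1 relative to the median of all rows. The shares over all rows were 10.1% and 5.55%. Aryl hydrocarbon receptor interacting protein-like 1, a chaperone of the photoreceptor phosphodiesterase, stood at 17.3 RPKM in the cavefish eye and 53.3 RPKM in the surface fish eye (-1.57). Calmodulin, the calcium sensor found in all cells, had 5 rows, none past 2-fold, with ratios between -0.55 and 0.29.

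Cyclases for the other cyclic nucleotide were mixed. Of 6 adenylate cyclase rows, 2 were at least 2-fold lower, where 10.1% of all rows were. Adenylate cyclase 1b stood at 11.6 RPKM in the cavefish eye and 85.6 RPKM in the surface fish eye (-2.79), and adenylate cyclase 3 at 5.03 RPKM in the cavefish eye and 12.0 RPKM in the surface fish eye (-1.11, and -0.84 relative to the median of all rows). Adenylate cyclase 7 (0.07) and adenylate cyclase 9 (0.07) lay near 0.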
